A study of Mus musculus with 8 samples.

Results

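The Mouse Genome Informatics database gives a provisional symbol to a gene whose function or status is not settled, either Gm with a number for a gene model predicted from the genome or a clone code ending in Rik for a cDNA of the RIKEN collection. The genes described here carry such a symbol and were expressed in cultured mouse lung fibroblasts. They are the gene entries of the deposited count table with such a symbol and a mean of at least 10 CPM (counts per 1000000 counts of a library) over all 8 libraries. This rule took 354 of the 55335 entries. Of the 24102 entries with such a symbol, 8393 had at least 1 count and 3015 passed the low-count filter of the test, among them all 354 members. Because the rule reads the mean of all libraries, a member could enter through the group in which it was high: 41 members had a mean under 10 CPM in at least 1 group, and 23 of these had it in the untreated group. The members were chosen on their level, and their levels are given below as a description.

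The cells were wild-type (WT) primary fibroblasts of mouse lung, grown in DMEM medium with fetal bovine serum, and total RNA was sequenced. Cells left untreated were compared with cells that had received recombinant TWEAK protein, at 10, 30 or 100 ng/ml, 48 hours before collection, and each of these groups has 2 libraries. TWEAK is a cytokine of the TNF superfamily that signals through the receptor Fn14, the product of Tnfrsf12a. No label tells if both libraries of a group are from different cultures or mice. The p-values therefore reflect only how much these libraries vary, possibly for technical reasons.

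Provisional symbols cover genes of several kinds. Processed pseudogenes arise when the mRNA of a parent gene is reverse transcribed and inserted into the genome as an intronless copy, and short reads from the parent transcript can match such a copy equally well. Pieces of the mitochondrial genome inserted into a chromosome pose the same question. Long noncoding RNAs act as RNA, and many are transcribed from the strand opposite a coding gene or serve as the host transcript of microRNAs, whose targets are chosen by the seed at bases 2 to 8.

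The members comprised 203 Gm and 151 Rik symbols. By the GENCODE M21 annotation of the GRCm38 assembly (mm10), 166 were protein coding, 139 were pseudogenes, 37 were long noncoding RNAs, 11 were of other types and 1, 9230112E08Rik, matched no annotated gene. The protein-coding members were mostly Rik symbols, 125 against 41 Gm, whereas 136 of the 139 pseudogenes were Gm symbols. The mean level of a member had a median of 23.1 CPM. The pseudogenes held 62.9% of the members' counts, the protein-coding members 25.8%, the long noncoding RNAs 6.93% and the other types 4.29%. A current RefSeq name other than the provisional symbol existed for 54 members. Exons of 124 members overlapped an exon of another gene, and how reads were counted, including by strand, is not given in the sources used here. Counts of overlapping or antisense genes may belong to either partner. Near copies numbered 154, of which 135 were pseudogenes. A near copy is defined here as a member with a transcript at least 95% identical over at least 80% of its length to a transcript of another gene. Their counts are uncertain, since reads can be shared between copy and parent.

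How close these copies are is shown by a stretch of 60 bases from the coding part of Gapdh, the glycolytic enzyme glyceraldehyde-3-phosphate dehydrogenase, beside the matching stretch of 5 of its 10 near copies among the members. Capitals mark bases that differ from Gapdh, and the stretch printed is the one inside a single coding exon of Gapdh with the most differences summed over the copies shown.
Gapdh, chr6:125162977-125163036, minus strand: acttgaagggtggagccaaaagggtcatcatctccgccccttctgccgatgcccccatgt
Gm13394, chr2:28934225-28934284, minus strand: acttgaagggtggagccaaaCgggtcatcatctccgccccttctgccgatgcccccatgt
Gm2606, chr15:12575214-12575273, plus strand: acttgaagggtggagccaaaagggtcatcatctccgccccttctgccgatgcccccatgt
Gm12033, chr11:20335629-20335688, minus strand: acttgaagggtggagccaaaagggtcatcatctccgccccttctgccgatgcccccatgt
Gm5559, chr5:95862039-95862098, plus strand: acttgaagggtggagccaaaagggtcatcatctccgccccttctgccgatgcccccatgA
Gm7336, chr7:51747022-51747081, plus strand: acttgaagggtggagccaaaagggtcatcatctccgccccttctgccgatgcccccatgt
Gm13394 and Gm5559 differed from Gapdh at 1 base each, and the other 3 copies were identical to it here. Gm5537, a copy of the glycolytic gene Pgk1, and Gm10925, a copy of the mitochondrial gene mt-Atp6, held no difference at all from the gene in the stretches below.
Pgk1, chrX:106187251-106187310, plus strand: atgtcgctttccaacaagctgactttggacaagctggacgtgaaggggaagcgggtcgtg
Gm5537, chr3:58104188-58104247, minus strand: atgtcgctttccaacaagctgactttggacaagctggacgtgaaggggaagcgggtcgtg
mt-Atp6, mitochondrial genome, bases 7927 to 7986, plus strand: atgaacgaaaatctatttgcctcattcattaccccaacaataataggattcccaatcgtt
Gm10925, chr1:24614592-24614651, minus strand: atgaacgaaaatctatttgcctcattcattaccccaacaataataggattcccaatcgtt
The sequences are those of GENCODE M21 transcripts. Over the 152 near copies compared with the closest transcript, the longest run without a difference had a median of 410 bases. The run reached at least 150 bases in 147 copies, and 29 copies were identical over their whole length. Both Gm5537 and Gm10925 belong to those 29.

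Library totals ranged from 37345575 to 50896445 counts, and the members held between 2.36% and 2.56% of a library. In CPM scaled by the TMM method used below, Tnfrsf12a was at 18.6 and 19.7 in untreated cells and at 33.3 and 32.3 with TWEAK at 10 ng/ml. It was at 29.0 and 40.1 at 30 ng/ml and at 21.6 and 22.8 at 100 ng/ml. The libraries labelled 100 ng/ml thus lay nearer to the untreated ones. The marker sums that follow are in CPM of the library total. All 9 fibroblast markers were detected, and their summed level was 21000 to 21300 CPM in untreated libraries, 11200 to 11300 at 10 ng/ml, 12100 to 13300 at 30 ng/ml and 19100 to 19700 at 100 ng/ml. Of these markers 6 fell at 10 ng/ml, the collagens Col3a1 and Col1a1 among them, and 3 rose, namely Pdgfra, Dcn and Vim. Leukocyte markers summed to 32.7 and 28.9 CPM in untreated libraries, 62.3 and 71.9 at 10 ng/ml, 66.7 and 54.0 at 30 ng/ml, and 46.5 and 49.2 at 100 ng/ml, and 3 of the 7, the defining Ptprc included, had a mean under 1 CPM. Of the 7, Cd68 and Cd14 rose at 10 and 30 ng/ml and 0 fell, and Cd68 rose at 100 ng/ml as well. Pericyte and smooth muscle markers summed to 66.1 and 51.5 CPM untreated, 141 and 131 at 10 ng/ml, 128 and 110 at 30 ng/ml, and 62.4 and 71.9 at 100 ng/ml, with 3 of 4 higher and 1 lower at 10 ng/ml. Mesothelial markers summed to 12.9 and 12.4 CPM untreated and 6.08 and 4.45 at 10 ng/ml. Lymphocyte, epithelial and endothelial markers each summed to at most 6.28 CPM in a library, and red blood cell markers were at 0. Of the 3 endothelial markers tested, Cdh5 rose and Tek fell at 10 ng/ml. The part of these shifts in the results below was not tested. In bulk RNA, fewer cells of a type and less RNA per cell cannot be told apart.

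Changes were tested with the quasi-likelihood test of edgeR over 17360 entries, and a gene is said to have risen or fallen, or to be called, where the Benjamini-Hochberg adjusted p over all of them was under 0.05. Levels from here on are CPM scaled by the TMM method, and changes are differences in log2 level against untreated cells. At 10 ng/ml, 79 members (22.3%) rose and 36 (10.2%) fell. Over all entries tested 15.0% rose and 14.2% fell. Among the 9418 other entries with a mean of at least 10 CPM, 1785 (19%) rose and 1815 (19.3%) fell. The median change of the members was 0.12 and that of all entries 0.01. At 30 ng/ml, 52 members (14.7%) rose and 24 (6.78%) fell, beside 12.6% and 10.7% of all entries tested. Of the other entries with a mean of at least 10 CPM, 15.9% rose and 15% fell at this dose. The median change of the members was 0.10 at 30 ng/ml. At 100 ng/ml edgeR called no member higher or lower, with 34 members at an unadjusted p under 0.05, and DESeq2 called 7. Of all entries edgeR called 0.812% higher and 0.305% lower at 100 ng/ml. For the other entries with a mean of at least 10 CPM the shares were 1.19% and 0.478%. At the largest dose the median change of the members was 0.04.

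The comparisons with untreated cells share the same 2 untreated libraries, so their calls are not independent of each other. Values are given dose by dose below for the members the results turn on. In all 115 members called at 10 ng/ml the treated and untreated libraries did not overlap. The calls rest on the same libraries, so this adds no separate support, and the share over all entries was not computed. Changes of at least 2-fold were measured in 8 of the rises and 6 of the falls.

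**Figure D1:**
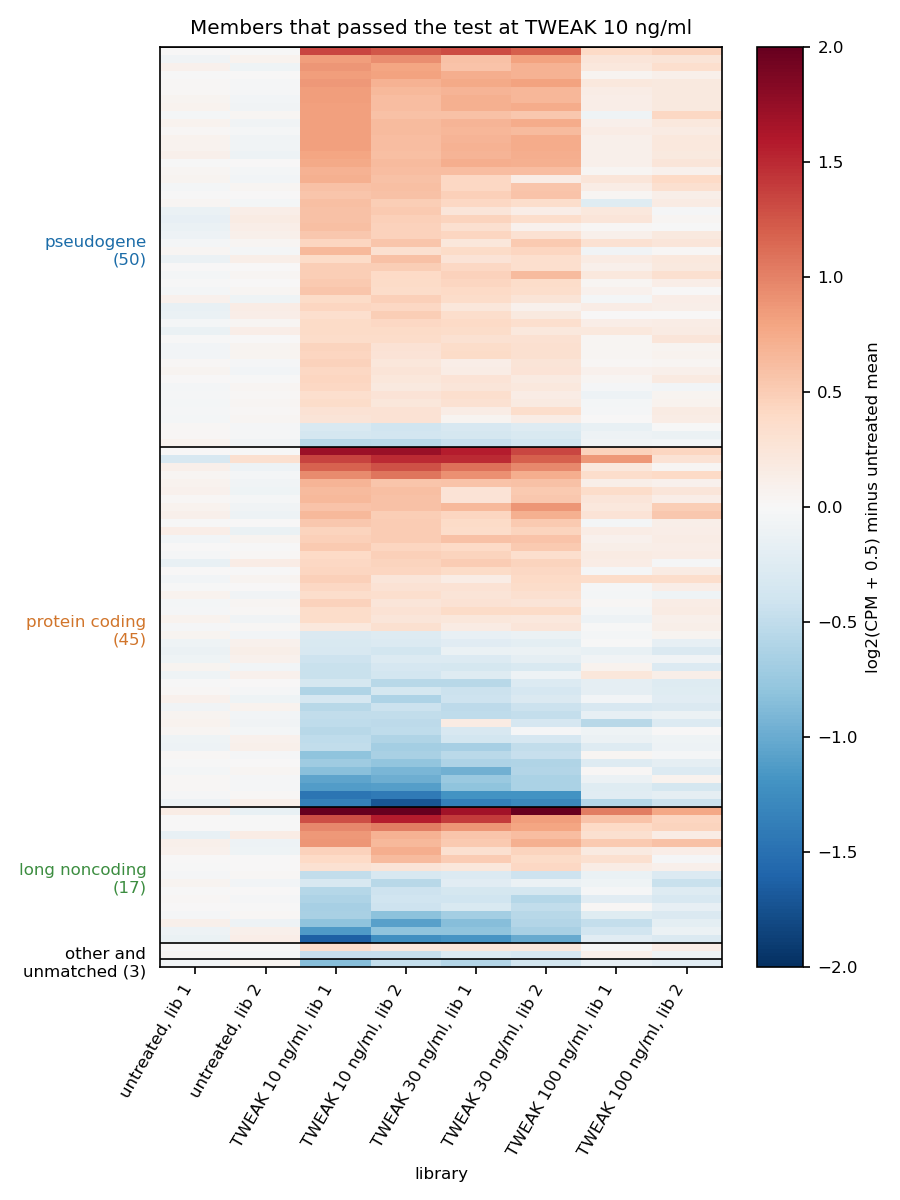
Change of the 115 members called at 10 ng/ml in each of the 8 libraries. Each row is a member, grouped by annotation class, each column a library, and the colour is log2(CPM + 0.5) minus the mean of the untreated libraries. Most rows of the pseudogene block (50 members) are higher with TWEAK at 10 and 30 ng/ml, while the protein-coding block (45 members) holds rises and falls in nearly equal number.

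The counts were uneven over the annotation classes, and the difference between classes was not tested. Of the 139 pseudogenes, 47 rose and 3 fell at 10 ng/ml, with a median change of 0.27. The 166 protein-coding members had 23 rises, 22 falls and a median of -0.01. Of the 37 long noncoding RNAs, 8 rose and 9 fell, with a median of -0.10. At 30 ng/ml the counts were 25 and 3 for pseudogenes, 20 and 13 for protein-coding members, and 7 and 7 for long noncoding RNAs. Members were also divided by sequence likeness. Of the 154 near copies 53 (34.4%) rose and 6 (3.9%) fell at 10 ng/ml, with a median of 0.27. Of the 200 members that were not near copies 26 (13.0%) rose and 30 (15.0%) fell, with a median of -0.02. Members that copy 1 parent can share its reads, so they are not counted as independent.

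**Figure D2:**
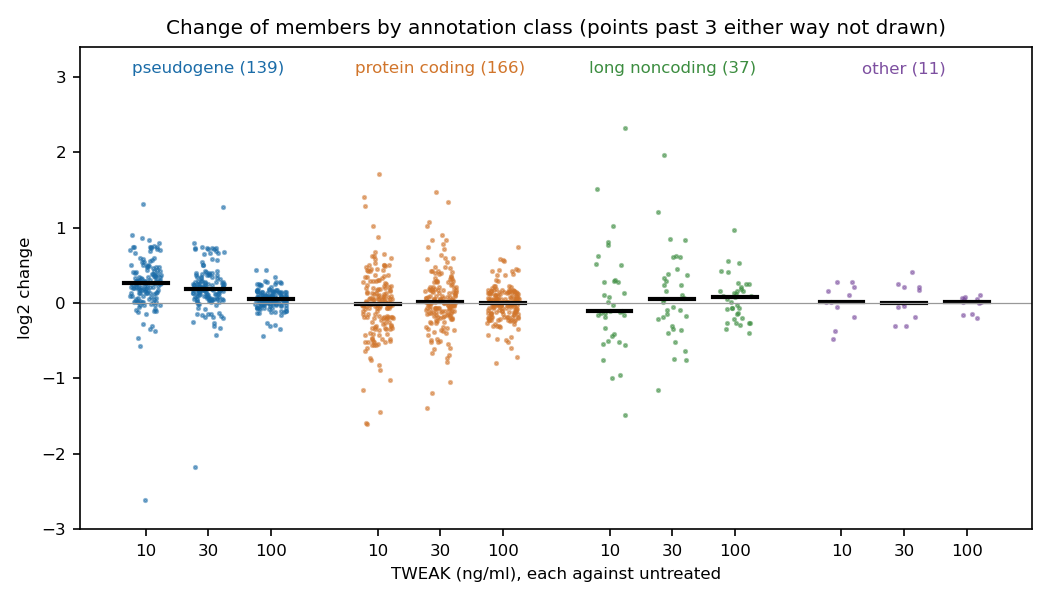
Log2 change of each member against untreated cells at 10, 30 and 100 ng/ml, by annotation class. Each point is a member, black lines are class medians, and Gm20634 and Gm45717, which lay beyond 3 log2 units, are not drawn. The pseudogene points lie mostly above 0 at 10 ng/ml, with a median of 0.27, and nearer to 0 at 100 ng/ml, with a median of 0.06.

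Among the pseudogenes, every one of the 10 near copies of Gapdh rose at 10 and at 30 ng/ml. Their changes lay between 0.69 and 0.80 at 10 ng/ml and between 0.65 and 0.80 at 30 ng/ml. At 100 ng/ml they lay between 0.08 and 0.21, where edgeR called 0, with 0 at an unadjusted p under 0.05, and DESeq2 called 0. Gm2606 was at 13.3 and 13.0 CPM in untreated libraries, 24.3 and 21.6 at 10 ng/ml, 22.5 and 23.3 at 30 ng/ml, and 15.3 and 15.1 at 100 ng/ml. All 4 libraries at the lower doses stood above the other 4. Its change at 10 ng/ml was 0.80 ± 0.10 (SE, edgeR adjusted p = 0.000723). Gm13394 was at 24.8 and 24.1 CPM untreated, 44.0 and 38.7 at 10 ng/ml, 39.4 and 38.9 at 30 ng/ml, and 27.2 and 28.1 at 100 ng/ml, again with no overlap between untreated cells and either lower dose. Gm13394 rose by 0.76 ± 0.09 at 10 ng/ml (edgeR adjusted p = 0.000523). Gapdh itself, at 790 and 849 CPM untreated, 1260 and 1330 at 10 ng/ml, 1340 and 1290 at 30 ng/ml, and 763 and 1020 at 100 ng/ml, rose by 0.66 ± 0.12 at 10 ng/ml (edgeR adjusted p = 0.0047). The change of every copy at 10 ng/ml was close to that of the gene.

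Gm5537, at chr3:58102996-58104247 on the minus strand, is an intronless copy of Pgk1, the glycolytic enzyme phosphoglycerate kinase, and had the largest rise of any pseudogene member called at 10 ng/ml. Its level was 19.3 and 18.9 CPM untreated, 48.8 and 45.9 at 10 ng/ml, 48.1 and 44.2 at 30 ng/ml, and 25.3 and 26.4 at 100 ng/ml. The libraries at 10 and 30 ng/ml stood far above the others, and those at 100 ng/ml lay just above the untreated pair. The change was 1.31 ± 0.09 at 10 ng/ml (edgeR adjusted p = 2.55e-05), 1.27 at 30 ng/ml (edgeR adjusted p = 4.76e-05) and 0.44 at 100 ng/ml (edgeR adjusted p = 0.0686). Pgk1 was at 253 and 266 CPM untreated and at 574 and 584 at 10 ng/ml, a change of 1.16 ± 0.07 (edgeR adjusted p = 1.56e-05). Per kilobase of exon, Gm5537 averaged 27.6 CPM and Pgk1 195.

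Other copies of glycolytic genes moved in the same direction. Gm4735, listed nearest to Eno1b of the enolases, was at 59.6 and 60.3 CPM untreated, 102 and 93.1 at 10 ng/ml, 100 and 98.8 at 30 ng/ml, and 64.6 and 71.3 at 100 ng/ml. Its untreated libraries were below all others, and its change at 10 ng/ml was 0.70 ± 0.08 (edgeR adjusted p = 0.000378). Eno1b was at 44.0 and 54.6 CPM untreated and at 79.3 and 71.0 at 10 ng/ml. Its change of 0.61 ± 0.92 was not called (edgeR adjusted p = 0.673). The fit shares its estimate of spread over all groups, and Eno1b was at 2.564 and 54.0 CPM at 100 ng/ml. Gm6560, a copy of the pyruvate kinase gene Pkm named here after its values were seen, rose from 11.1 and 12.3 CPM to 21.3 and 22.7 at 10 ng/ml, a change of 0.91 ± 0.12 (edgeR adjusted p = 0.000864), beside a change of 0.76 in Pkm.

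Outside glycolysis, Gm9800 is a copy of Ptma, which encodes the nuclear protein prothymosin alpha. Gm9800 was at 17.2 and 17.5 CPM untreated, 31.2 and 30.8 at 10 ng/ml, 29.0 and 28.5 at 30 ng/ml, and 18.1 and 18.7 at 100 ng/ml. The libraries at the lower doses lay well apart from the remaining 4. The change at 10 ng/ml was 0.84 ± 0.08 (edgeR adjusted p = 0.000197), against 0.75 for Ptma (edgeR adjusted p = 0.00992). Gm15459, a copy of the chaperone gene Hspa8, went from 255 and 264 CPM untreated to 328 and 315 at 10 ng/ml and 326 and 289 at 30 ng/ml, with 243 and 270 at 100 ng/ml. Its untreated libraries lay below those of both lower doses and inside the range at 100 ng/ml, and the change at 10 ng/ml was 0.31 (edgeR adjusted p = 0.0217).

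Copies of ribosomal protein genes, taken as genes whose symbol is Rpl or Rps with a number, made up 48 of the near copies. Of these 20 (41.7%) rose at 10 ng/ml and 5 (10.4%) at 30 ng/ml, beside 15.0% and 12.6% of all entries tested. At 100 ng/ml edgeR called 0, with 1 at an unadjusted p under 0.05, and DESeq2 called 0. Their changes at 10 ng/ml ran from 0.07 to 0.67, with a median of 0.31. The 36 ribosomal protein genes closest to them had a median change of 0.28. The list of all genes with such symbols also took in 11 that encode S6 kinases or a binding protein, and these were left out after their values were seen. Of the 83 remaining genes tested, 48 rose at 10 ng/ml, with a median of 0.27. Their summed level, in CPM of the library total, was 32100 to 33600 in untreated libraries and 39000 to 41300 at 10 ng/ml.

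Falls were rarer among the copies. Gm9844, a copy of Tmsb10, which encodes an actin-binding thymosin, was at 32.4 and 36.0 CPM untreated, 23.1 and 25.1 at 10 ng/ml, 23.6 and 25.2 at 30 ng/ml, and 27.2 and 27.8 at 100 ng/ml. Its untreated libraries were the highest of the 8. The change at 10 ng/ml was -0.50 (edgeR adjusted p = 0.00546), and that of Tmsb10 was -0.48 (edgeR adjusted p = 0.00147). The pseudogenes that fell at 10 ng/ml, named here after their values were seen, were Gm5601, closest to the phosphatase gene Ppp1cc, Gm9299, closest to Armcx3, and Gm9770, closest to Ctdsp2, with changes of -0.35, -0.57 and -0.37.

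Change in a copy was set beside change in its closest gene for the 151 near copies whose closest gene was tested. In the 144 outside the mitochondrial insertion described next, the difference between the log2 changes at 10 ng/ml had a median absolute value of 0.08, and 124 copies (86.1%) were within 0.25 of their gene. This held for 46 of the 48 ribosomal protein copies and for each of the 10 Gapdh copies. Of the 52 such copies that rose, 41 had a closest gene that also rose and 51 had one with a positive change. In each of the 6 copies that fell the closest gene had a negative change. Because reads can be shared between copy and gene, their changes are not independent measurements.

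A few copies lay far from their gene. Gm14698, closest to the phosphatase-like gene Styx, changed by 0.45 where Styx changed by 2.20 (edgeR adjusted p = 0.077 for Styx). Gm21811, closest to the cadherin gene Cdh11, changed by 0.01 where Cdh11 changed by 1.40. These members were named after their values were seen.

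**Figure D3:**
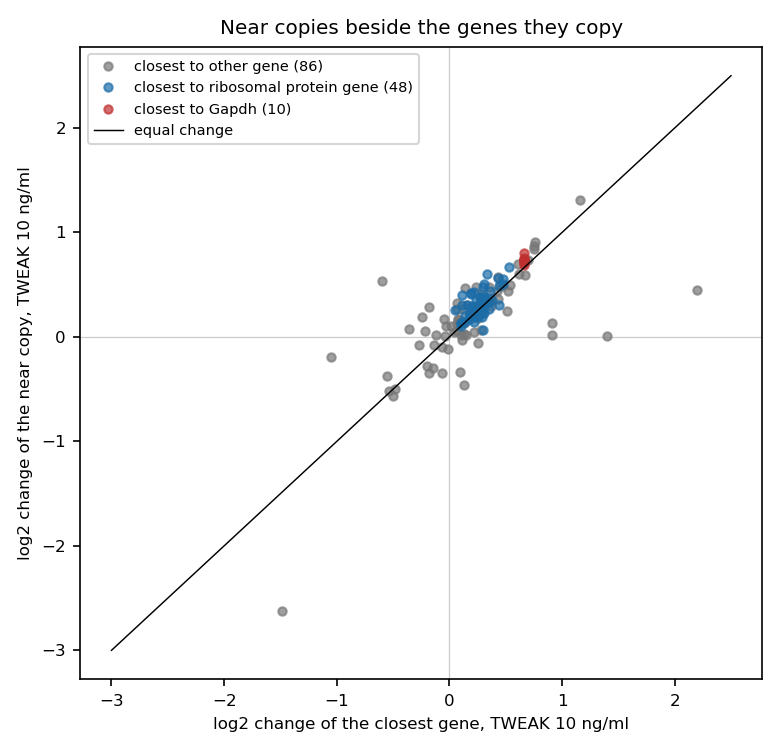
Log2 change at 10 ng/ml of 144 near copies outside the mitochondrial insertion (vertical axis) against that of the closest gene (horizontal axis). Each point is a member, coloured as a copy of a ribosomal protein gene (48), of Gapdh (10) or of another gene (86), and 124 of the 144 points lie within 0.25 of the line of equal change.

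The highest levels of all members were those of mitochondrial copies. A block of members at about 24.6 megabases of chromosome 1 copies 7 mitochondrial genes, and its members include the 6 with the highest mean CPM of all. Gm10925, the copy of mt-Atp6, was at 2480 and 2620 CPM untreated, 2360 and 2550 at 10 ng/ml, 2400 and 2430 at 30 ng/ml, and 2400 and 2680 at 100 ng/ml. Its groups overlapped, and no dose was called. Gm28437, the copy of mt-Co3, was at 2180 and 2370 CPM untreated and 2230 and 2370 at 10 ng/ml, and Gm28661, the copy of mt-Co2, at 2210 and 2410 untreated and 2280 and 2400 at 10 ng/ml. Both likewise overlapped between groups.

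The ratio of the copy's count to the gene's count differed from pair to pair. The Gm28661 count was 100% of the mt-Co2 count in every library, and the Gm28437 count 99.8% to 100% of the mt-Co3 count. Gm10222 stood at 99.1% to 99.4% of mt-Nd4l and Gm28438 at 98.4% to 99.3% of mt-Nd3. Gm28439 stood at 39.5% to 42.5% of mt-Nd4, and Gm29216 at 11.5% to 13.0% of mt-Co1. The Gm10925 count was 108% of the mt-Atp6 count in 1 untreated library and up to 686% of it in the others. In that untreated library mt-Atp6 was itself at 2299 CPM, against 363 to 423 CPM in the remaining 7. The change of mt-Atp6 at 10 ng/ml, -1.80 ± 0.61, was not called (edgeR adjusted p = 0.0608). Of the 7 copies edgeR called 0 at 10 ng/ml and 0 at 100 ng/ml, with 0 and 2 at an unadjusted p under 0.05, and DESeq2 called 0 at either dose. Gm29216, at 1620 and 1750 CPM untreated and 1520 and 1410 at 30 ng/ml, fell by 0.20 at 30 ng/ml (edgeR adjusted p = 0.0414).

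**Figure D4:**
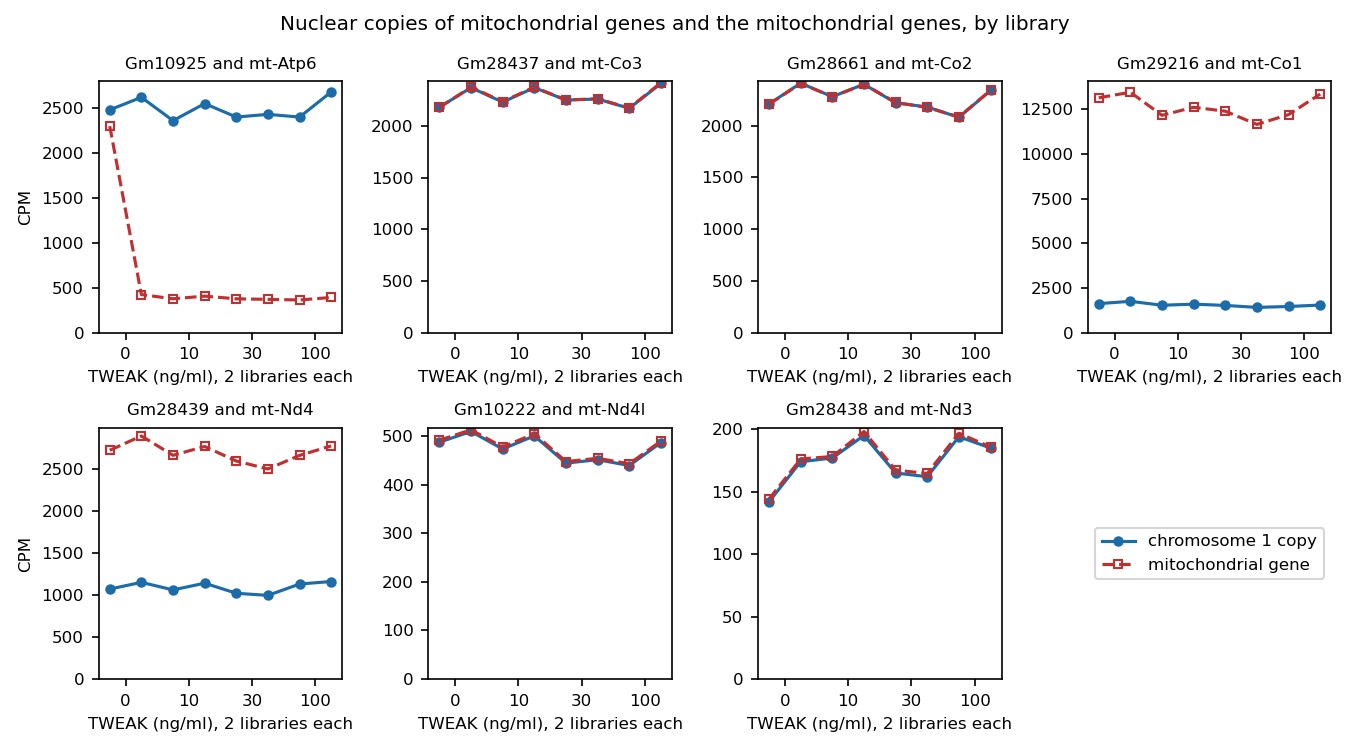
Level of each of the 7 chromosome 1 copies and of the mitochondrial gene it copies, in CPM on a linear axis, in the 8 libraries. The copy and the gene coincide in each library for mt-Co2 and mt-Co3, and mt-Atp6 stands at 2299 CPM in 1 untreated library and between 363 and 423 CPM in the rest.

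Among protein-coding members, 1700025G04Rik had the largest rise of those called at 10 ng/ml. It lies at chr1:151852403-152090125 on the minus strand, and its product has no settled function. Its level was 40.9 and 40.3 CPM untreated, 134 and 135 at 10 ng/ml, 121 and 103 at 30 ng/ml, and 56.0 and 54.8 at 100 ng/ml. The libraries of each group lay close together, and no treated library overlapped the untreated pair. The change was 1.72 ± 0.09 at 10 ng/ml (edgeR adjusted p = 8.88e-06), 1.47 ± 0.09 at 30 ng/ml (edgeR adjusted p = 2.78e-05) and 0.45 at 100 ng/ml (edgeR adjusted p = 0.0657).

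Gm21887, whose current name is Erdr1, an erythroid differentiation regulator, was at 7.13 and 6.06 CPM untreated, 15.6 and 16.6 at 10 ng/ml, 14.6 and 13.3 at 30 ng/ml, and 7.69 and 6.73 at 100 ng/ml. Its libraries at 100 ng/ml overlapped the untreated ones, and those at the lower doses were all higher. It rose by 1.29 ± 0.14 at 10 ng/ml (edgeR adjusted p = 0.000354) and by 1.08 at 30 ng/ml. Gm21887 is a near copy of Gm47283, 100.0% identical over 99.6% of its length, so reads can be shared between them. RefSeq lists Gm21887 as a transcribed pseudogene. Gm16867 was at 20.2 and 18.9 CPM untreated, 37.9 and 41.6 at 10 ng/ml, 37.4 and 32.5 at 30 ng/ml, and 25.0 and 25.8 at 100 ng/ml, with every treated library above the untreated pair. Gm16867 rose by 1.03 ± 0.10 at 10 ng/ml (edgeR adjusted p = 0.000212). 2810474O19Rik, now Resf1, which encodes a retroelement silencing factor, was at 25.8 and 23.1 CPM untreated, 32.9 and 21.0 at 10 ng/ml, 44.9 and 42.7 at 30 ng/ml, and 22.2 and 19.3 at 100 ng/ml. It was high at 30 ng/ml alone, with a change of 0.84 ± 0.19 (edgeR adjusted p = 0.0163) there and 0.14 at 10 ng/ml (edgeR adjusted p = 0.636).

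The deepest fall among members with a settled current name was that of 1190002N15Rik, now Dipk2a, at chr9:94517864-94538081 on the minus strand, which encodes a kinase-like protein of the secretory pathway. Its level was 127 and 130 CPM untreated, 46.4 and 48.1 at 10 ng/ml, 56.0 and 56.0 at 30 ng/ml, and 110 and 113 at 100 ng/ml. The untreated pair was highest and the pair at 10 ng/ml lowest, with a wide gap. The change was -1.44 ± 0.06 at 10 ng/ml (edgeR adjusted p = 5.07e-06), -1.20 at 30 ng/ml (edgeR adjusted p = 1.65e-05) and -0.20 at 100 ng/ml (edgeR adjusted p = 0.232).

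Gm14403 lies in a cluster of zinc-finger genes at chr2:177498215-177509763 and fell further in log2 terms. Its level was 17.8 and 20.4 CPM untreated, 7.13 and 5.45 at 10 ng/ml, 7.05 and 7.53 at 30 ng/ml, and 12.7 and 14.0 at 100 ng/ml. No treated library reached the untreated pair. The change was -1.60 ± 0.16 at 10 ng/ml (edgeR adjusted p = 0.00023), -1.39 at 30 ng/ml (edgeR adjusted p = 0.000621) and -0.52 at 100 ng/ml (edgeR adjusted p = 0.23). Of the other 7 members of the same cluster, Gm14325 was called at 10 ng/ml, with a change of -0.35 (edgeR adjusted p = 0.0451), and the rest were not, with changes from -0.34 in Gm14326 to 0.10 in Gm14295. The genes of this cluster resemble each other, and Gm14305, Gm14325, Gm14326 and Gm14410 are near copies, so reads among them can be shared. Zfp970, a zinc-finger gene that is not a member, was at 60.6 and 64.0 CPM untreated and 12.3 and 12.5 at 10 ng/ml. Zfp970 changed by -2.33 ± 0.12 at 10 ng/ml (edgeR adjusted p = 9.58e-06).

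2610008E11Rik was at 76.1 and 74.4 CPM untreated, 36.0 and 38.2 at 10 ng/ml, 45.0 and 48.1 at 30 ng/ml, and 69.1 and 79.2 at 100 ng/ml. The libraries at 100 ng/ml lay on either side of the untreated ones, and the change was -1.02 ± 0.09 at 10 ng/ml (edgeR adjusted p = 0.000101) and -0.02 at 100 ng/ml (edgeR adjusted p = 0.967). E130308A19Rik was at 25.7 and 24.6 CPM untreated, 11.3 and 11.4 at 10 ng/ml, 14.2 and 16.1 at 30 ng/ml, and 21.1 and 19.6 at 100 ng/ml. Its treated libraries were all below the untreated pair, with a change at 10 ng/ml of -1.15 ± 0.11 (edgeR adjusted p = 0.000144).

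3632451O06Rik, now Armh4, a membrane protein with an armadillo-like domain, was at 23.3 and 24.5 CPM untreated, 13.2 and 12.5 at 10 ng/ml, 13.9 ± 2.68 (SD, n = 2) at 30 ng/ml, and 24.4 and 19.6 at 100 ng/ml, where it overlapped the untreated level. It fell by 0.89 at 10 ng/ml (edgeR adjusted p = 0.00423). 2310022B05Rik was at 175 and 176 CPM untreated, 107 and 101 at 10 ng/ml, 114 and 116 at 30 ng/ml, and 147 and 155 at 100 ng/ml. All treated libraries of 2310022B05Rik were lower than the untreated pair, and it fell by 0.75 ± 0.07 at 10 ng/ml (edgeR adjusted p = 0.000101). The highest protein-coding members did not pass the test at any dose. 9530068E07Rik averaged 385 CPM over the 8 libraries, with 389 and 380 untreated and 403 and 394 at 10 ng/ml, and 2610507B11Rik averaged 253 CPM.

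**Figure D5:**
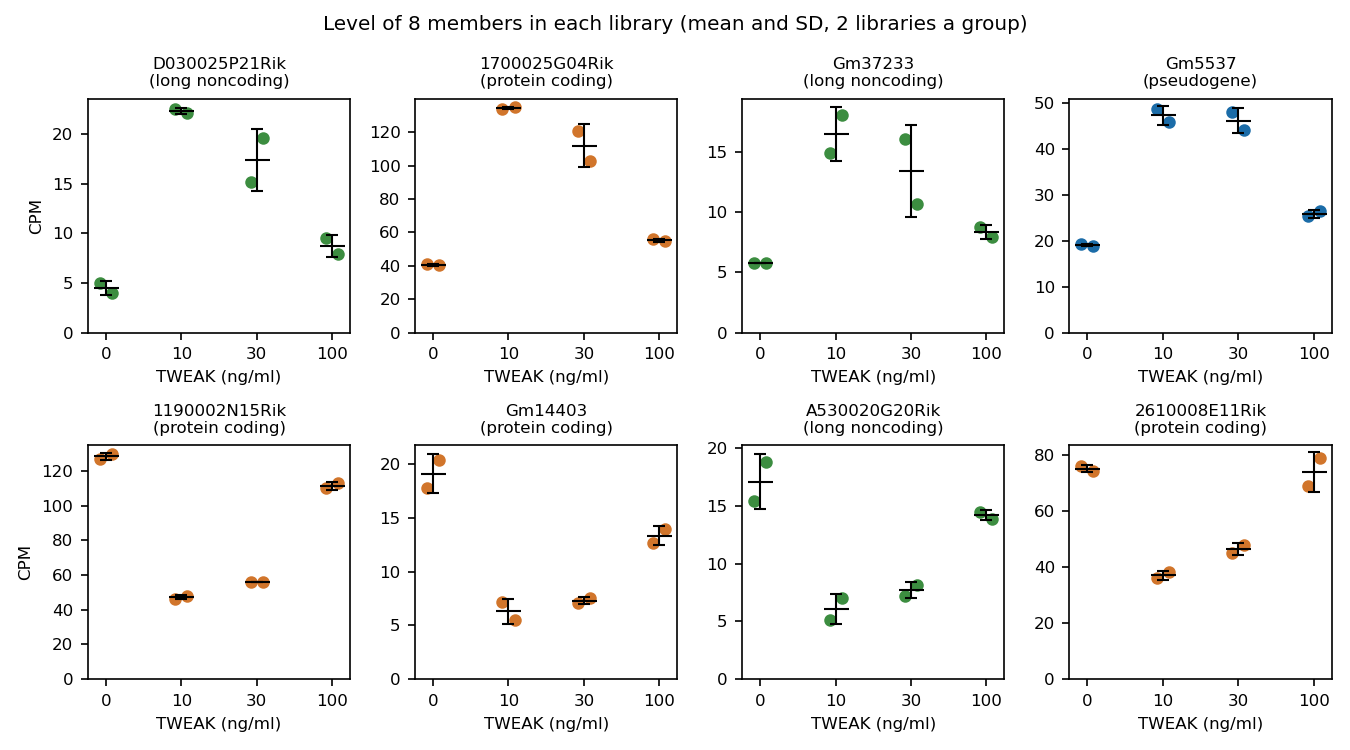
Level in CPM of 8 members in each library (points), by group, with the group mean as a black dash and its SD as an error bar (n = 2). D030025P21Rik, 1700025G04Rik, Gm37233 and Gm5537 are higher at 10 and 30 ng/ml than in untreated cells, and 1190002N15Rik, Gm14403, A530020G20Rik and 2610008E11Rik are lower, with the libraries at 100 ng/ml nearer to the untreated ones.

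The long noncoding RNA with the largest rise was D030025P21Rik, at chr12:84875769-84879755 on the plus strand. Its exons overlap, on the opposite strand, those of Ltbp2, which encodes an extracellular matrix protein that binds fibrillin microfibrils. D030025P21Rik was at 4.95 and 3.95 CPM untreated, 22.5 and 22.1 at 10 ng/ml, 15.2 and 19.6 at 30 ng/ml, and 9.53 and 7.91 at 100 ng/ml. Each treated library exceeded both untreated ones, and those at 100 ng/ml were the lowest of the treated. The change was 2.32 ± 0.18 at 10 ng/ml (edgeR adjusted p = 6.27e-05), 1.96 ± 0.18 at 30 ng/ml (edgeR adjusted p = 0.000199) and 0.97 ± 0.18 at 100 ng/ml (edgeR adjusted p = 0.0601). Ltbp2 was at 484 and 483 CPM untreated and at 1970 and 1980 at 10 ng/ml, a change of 2.03 ± 0.04 (edgeR adjusted p = 6.82e-07). In each of the 8 libraries the D030025P21Rik count was between 0.819% and 1.14% of the Ltbp2 count, and without a known strand setting reads of the pair cannot be told apart.

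Gm37233, at chr1:34427002-34433264 on the minus strand, contains Mir5103. It was at 5.81 and 5.78 CPM untreated, 14.9 and 18.1 at 10 ng/ml, 16.1 and 10.7 at 30 ng/ml, and 8.80 and 7.96 at 100 ng/ml. All treated libraries were above the untreated pair, those at 30 ng/ml lying furthest apart, and the change was 1.51 ± 0.21 at 10 ng/ml (edgeR adjusted p = 0.00111). Gm27177 on chromosome 14 lies opposite Entpd4b and Loxl2, the latter a lysyl oxidase that crosslinks collagen. Gm27177 was at 17.3 and 17.2 CPM untreated, 34.1 and 35.6 at 10 ng/ml, 32.1 and 30.1 at 30 ng/ml, and 22.8 and 23.6 at 100 ng/ml. It rose by 1.02 ± 0.09 at 10 ng/ml (edgeR adjusted p = 8.27e-05), while Loxl2, at 336 and 329 CPM untreated and 125 and 112 at 10 ng/ml, fell by 1.49 (edgeR adjusted p = 1.09e-05). The antisense pair thus moved in opposite directions, unlike D030025P21Rik and Ltbp2.

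Further long noncoding members rose at 10 ng/ml and are named after their values were seen. 6530402F18Rik rose by 0.81 ± 0.15 (edgeR adjusted p = 0.00478). 6330403L08Rik, opposite the growth factor gene Pdgfa, was at 15.5 and 13.6 CPM untreated and 20.1 and 24.4 at 10 ng/ml, a change of 0.62 ± 0.13 (edgeR adjusted p = 0.00928), and Pdgfa rose by 1.23 (edgeR adjusted p = 0.00014).

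Among the falls, A530020G20Rik, at chr3:121531619-121536206 on the plus strand and opposite the choline transporter-like gene Slc44a3, was at 15.4 and 18.8 CPM untreated, 5.13 and 7.02 at 10 ng/ml, 7.20 and 8.17 at 30 ng/ml, and 14.5 and 13.9 at 100 ng/ml. The untreated pair was highest, and the libraries at 10 ng/ml were the lowest. Its change was -1.49 ± 0.18 at 10 ng/ml (edgeR adjusted p = 0.000616) and -1.16 at 30 ng/ml (edgeR adjusted p = 0.00273), and Slc44a3 changed by -1.37 at 10 ng/ml (edgeR adjusted p = 0.00174). A830082K12Rik, opposite the orphan nuclear receptor gene Nr2f1, was at 14.3 and 16.7 CPM untreated, 6.79 and 8.68 at 10 ng/ml, 8.68 and 9.71 at 30 ng/ml, and 11.7 and 14.2 at 100 ng/ml. Its untreated and 10 ng/ml libraries did not overlap, and it fell (edgeR adjusted p = 0.00361). Nr2f1 fell by 1.28 (edgeR adjusted p = 6.88e-05). 3300005D01Rik was at 32.5 and 27.9 CPM untreated, 17.0 and 14.0 at 10 ng/ml, 16.4 and 19.8 at 30 ng/ml, and 21.5 and 26.1 at 100 ng/ml, with the untreated pair above all others. Its change of -0.96 at 10 ng/ml passed the test (edgeR adjusted p = 0.00281).

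Several long noncoding members have a name and a known role. Gm14005, now Morrbid, an RNA known to restrain the neighbouring death gene Bcl2l11 in myeloid cells, was at 13.9 and 14.4 CPM untreated, 8.84 and 7.83 at 10 ng/ml, 8.66 and 9.47 at 30 ng/ml, and 11.9 and 11.5 at 100 ng/ml. It fell by 0.76 at 10 ng/ml (edgeR adjusted p = 0.00279), with a change of -0.25 in Bcl2l11 (edgeR adjusted p = 0.698). 1700020I14Rik, now Oip5os1 and known as Cyrano, an RNA that directs the decay of a microRNA, was at 190 and 194 CPM untreated, 129 and 144 at 10 ng/ml, 150 and 150 at 30 ng/ml, and 188 and 161 at 100 ng/ml. It fell by 0.50 at 10 ng/ml (edgeR adjusted p = 0.00447). Both were named after their values were seen. 2900097C17Rik, now Norad, which binds Pumilio proteins, was at 367 and 371 CPM untreated, 333 and 340 at 10 ng/ml, 356 and 359 at 30 ng/ml, and 378 and 370 at 100 ng/ml. The libraries at 10 ng/ml were its lowest, but its change of -0.13 was not called (edgeR adjusted p = 0.0836).

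Members at the ribosomal RNA loci gave a mixed picture. Gm26917 was at 38.7 and 33.7 CPM untreated, 66.7 and 56.8 at 10 ng/ml, 52.1 and 59.4 at 30 ng/ml, and 52.4 and 54.2 at 100 ng/ml. Every treated library was above the untreated pair, and the change was 0.77 ± 0.11 at 10 ng/ml (edgeR adjusted p = 0.00164). Gm42418 was at 36.7 and 36.9 CPM untreated and 51.2 and 38.7 at 10 ng/ml, and its change of 0.29 was not called (edgeR adjusted p = 0.17). Of the 5 genes of this list that were tested Gm26917 alone was called at 10 ng/ml.

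Other lists of noncoding genes serve as a background to the members. Of 14 snoRNA host genes tested, whose introns carry the small RNAs that guide ribosomal RNA modification, 6 rose and 1 fell at 10 ng/ml, with a median change of 0.44. Of 18 named long noncoding RNAs 1 rose and 4 fell, with a median of 0.03. Of 32 genes of the mitochondrial genome 5 rose and 1 fell.

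Of the 11 members of other types, 5 are annotated as microRNA genes. Gm22133, Gm27597, Gm25745 and Gm26377 lie inside exons of abundant genes, and Gm23935 overlaps no exon of another gene. Gm22133, inside the ferritin gene Ftl1, was at 484 and 466 CPM untreated and at 506 and 459 at 10 ng/ml. Its count was 14.6% to 17.4% of that of Ftl1, and its change of 0.02 was not called. Gm27597, inside the ribosomal protein gene Rpl19, was at 138 and 137 CPM untreated, 173 and 160 at 10 ng/ml, 161 and 160 at 30 ng/ml, and 137 and 150 at 100 ng/ml. It rose by 0.28 at 10 ng/ml (edgeR adjusted p = 0.0232), as did Rpl19 by 0.28, and its count was 21.4% to 22.2% of the Rpl19 count. Gm44250, an entry whose transcript still awaits experimental testing, was at 78.3 and 73.9 CPM untreated, 55.2 and 54.9 at 10 ng/ml, 62.8 and 59.9 at 30 ng/ml, and 81.4 and 71.6 at 100 ng/ml. It fell by 0.47 at 10 ng/ml (edgeR adjusted p = 0.00393). The unmatched 9230112E08Rik was at 20.2 and 21.9 CPM untreated, 11.4 and 15.0 at 10 ng/ml, 13.8 and 16.2 at 30 ng/ml, and 18.8 and 17.9 at 100 ng/ml, a change of -0.67 at 10 ng/ml (edgeR adjusted p = 0.0129).

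Of the members whose entries contain microRNA genes, 4 that were called at 10 ng/ml are shown with mature sequences from these genes, to show which microRNAs such transcripts can carry. Mature sequences are not shown for 5031439G07Rik, which was called higher as well, or for 2700081O15Rik, 3110082I17Rik and Gm4149, which were not called. Capitals mark the seed, and the sequences are from RefSeq on GRCm38.p6. Of the hosts, 2610203C20Rik is now Mir100hg, 2010111I01Rik is now the aminopeptidase gene Aopep, and Gm45837 is a read-through model of Arap1 and Pde2a. The hosts other than Gm37233 were named after their values were seen.
miR-100-5p, in 2610203C20Rik, chr9:41531437-41531458, plus strand: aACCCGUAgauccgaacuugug
let-7a-2-3p, in 2610203C20Rik, chr9:41536777-41536797, plus strand: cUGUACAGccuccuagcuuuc
miR-125b-5p, in 2610203C20Rik, chr9:41581940-41581961, plus strand: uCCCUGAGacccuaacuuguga
miR-27b-3p, in 2010111I01Rik, chr13:63300760-63300780, plus strand: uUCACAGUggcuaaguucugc
miR-24-3p, in 2010111I01Rik, chr13:63301251-63301272, plus strand: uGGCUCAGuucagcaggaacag
miR-139-5p, in Gm45837, chr7:101475382-101475403, plus strand: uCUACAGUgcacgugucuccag
miR-5103, in Gm37233, chr1:34433130-34433149, minus strand: uCAUCCGGgauccccugagg
No seed is shared among these 7. The host 2610203C20Rik was at 47.7 and 47.7 CPM untreated, 62.9 and 74.0 at 10 ng/ml, 68.1 and 62.3 at 30 ng/ml, and 59.6 and 47.1 at 100 ng/ml. It rose by 0.52 ± 0.13 at 10 ng/ml (edgeR adjusted p = 0.0174), with the libraries at 100 ng/ml overlapping the untreated ones. The host 2010111I01Rik was at 85.7 and 95.8 CPM untreated, 63.6 and 59.4 at 10 ng/ml, 70.1 and 71.7 at 30 ng/ml, and 83.1 and 85.5 at 100 ng/ml, and fell by 0.56 ± 0.08 at 10 ng/ml (edgeR adjusted p = 0.00121). The host Gm45837 rose by 0.60 ± 0.14 at 10 ng/ml (edgeR adjusted p = 0.0124). Levels of mature microRNAs were not analysed here.

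TWEAK is known to activate the transcription factor NF-kB, and the promoters of the members were searched for the NF-kB consensus on both strands, in the 250 bases before each start that RefSeq gives for a gene. A promoter was found for 143 members, and 14 of them (9.79%) held a match. Of all 27025 genes with a promoter in RefSeq, at any level of expression, 2225 (8.23%) held a match. Matches lay in 5 of the 18 promoters of members that rose at 10 ng/ml (27.8%), in 1 of the 23 of members that fell (4.35%) and in 8 of the 102 of members not called (7.84%). A match is a description of the letters and no evidence of binding, and neither share was tested. The members that rose with a match were 2410006H16Rik, 2610203C20Rik, 6530402F18Rik, C330007P06Rik and Gm20605, named for the match. The starts with a match in 2610203C20Rik and C330007P06Rik lie inside the gene, downstream of its first annotated base. For the other 3 the 250 bases are printed, with the match in capitals.
2410006H16Rik, chr11:62602627-62602876, plus strand: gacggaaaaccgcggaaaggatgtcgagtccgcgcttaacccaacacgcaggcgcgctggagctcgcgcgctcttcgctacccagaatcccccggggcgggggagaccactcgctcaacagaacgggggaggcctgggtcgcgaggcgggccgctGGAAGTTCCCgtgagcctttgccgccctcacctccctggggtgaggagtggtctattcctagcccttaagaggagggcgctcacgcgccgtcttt
6530402F18Rik, chr2:29252994-29253243, minus strand: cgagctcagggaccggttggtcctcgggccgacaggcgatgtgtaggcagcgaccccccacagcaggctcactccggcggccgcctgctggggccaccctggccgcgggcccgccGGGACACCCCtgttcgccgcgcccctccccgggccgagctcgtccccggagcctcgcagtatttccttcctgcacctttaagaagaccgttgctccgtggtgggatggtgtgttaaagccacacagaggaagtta
Gm20605, chr5:137628873-137629122, plus strand: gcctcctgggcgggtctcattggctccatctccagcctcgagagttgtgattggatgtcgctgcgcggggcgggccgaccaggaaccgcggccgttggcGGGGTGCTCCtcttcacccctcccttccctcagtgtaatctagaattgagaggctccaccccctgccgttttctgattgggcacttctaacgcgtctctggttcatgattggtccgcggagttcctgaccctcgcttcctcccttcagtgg
Of these, 2410006H16Rik was at 55.9 and 56.7 CPM untreated and 69.3 and 67.1 at 10 ng/ml, a change of 0.28 ± 0.08 (edgeR adjusted p = 0.0373). 6530402F18Rik was at 7.65 and 9.47 CPM untreated, 16.0 and 14.1 at 10 ng/ml, 12.8 and 13.3 at 30 ng/ml, and 10.8 and 9.51 at 100 ng/ml.

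Some members differed widely between libraries of 1 group, among them some read-through models, which join exons of neighbouring genes. In 15 members the libraries of some group differed at least 2-fold, with 0.5 added to each CPM, and 5 of these were read-through models. At 10 ng/ml edgeR called 0 of these 15, with 1 at an unadjusted p under 0.05, and DESeq2 called 1. At 100 ng/ml edgeR again called 0, with 1 at an unadjusted p under 0.05, and DESeq2 called 1. Gm45717, which joins the interferon-induced membrane protein genes Ifitm2 and Ifitm5, was at 324 CPM in 1 library at 100 ng/ml, at 2.22 CPM in 1 library at 10 ng/ml and at 0 in the others. Ifitm2 was at 239 CPM in that library at 100 ng/ml and at 653 in the other. Gm21451, a near copy of Loxl2, was at 98.1 and 89.6 CPM untreated, 0.0801 and 30.2 at 10 ng/ml, 41.3 and 0.118 at 30 ng/ml, and 73.0 and 74.1 at 100 ng/ml. Gm20634 was at 0 and 0.742 CPM untreated, 13.9 and 0 at 10 ng/ml, 33.4 and 9.26 at 30 ng/ml, and 0.226 and 25.9 at 100 ng/ml. Within a group, 1 library could be near 0 and the other well above it.

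Of the 15 read-through models, Gm20605, Gm21981 and Gm45837 were called at 10 ng/ml, all as rises. Gm20605, which joins Lrch4 and Sap25, was at 14.9 and 23.5 CPM untreated, 48.4 and 53.3 at 10 ng/ml, 53.8 and 43.3 at 30 ng/ml, and 34.6 and 23.1 at 100 ng/ml. The libraries at 100 ng/ml overlapped the untreated ones. Its change was 1.41 ± 0.25 at 10 ng/ml (edgeR adjusted p = 0.00428). Other genes overlapped 94.8% of its exon bases, so reads can be shared with them. Lrch4 was at 16.9 and 4.39 CPM untreated and at 5.56 and 3.65 at 10 ng/ml. The change of Lrch4, -1.21 ± 1.04, was not called (edgeR adjusted p = 0.434).

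The doses were compared with each other. Against 10 ng/ml, 25 members (7.06%) were higher and 48 (13.6%) lower at 100 ng/ml, beside 10.7% and 11.2% of all entries tested. Of the other entries with a mean of at least 10 CPM, 14.8% were higher and 15.1% lower. Against 30 ng/ml, 12 members (3.39%) were higher and 32 (9.04%) lower at 100 ng/ml, beside 7.15% and 8.04% of all entries tested. The shares were 10.3% and 10.9% for the other entries with a mean of at least 10 CPM. The comparisons share libraries with each other and with those above. Between 30 and 10 ng/ml edgeR called 0 members, as it did 0% of entries in either direction, with 23 members at an unadjusted p under 0.05 and 2 called by DESeq2. At 100 against 10 ng/ml, among members that passed the test, the largest differences in each direction were those of 1190002N15Rik, 1.24 ± 0.06 (edgeR adjusted p = 3.57e-05), and D030025P21Rik, -1.36 ± 0.18 (edgeR adjusted p = 0.00128). Next came A530020G20Rik at 1.23 and Gm14403 at 1.09 among the members higher at 100 ng/ml, and 1700025G04Rik at -1.28 and Gm21887 at -1.16 among those lower. Against 30 ng/ml the difference was 0.99 in 1190002N15Rik and -1.08 in 2810474O19Rik (edgeR adjusted p = 0.00849).

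At 100 ng/ml against untreated cells, the smallest adjusted p of a member was 0.0601 in edgeR, that of D030025P21Rik. It was followed by 1700025G04Rik with 0.0657, Gm5537 with 0.0686, Gm27177 with 0.073 and Gm26917 with 0.0804, all with positive changes. DESeq2 called these 5 members and also 0610030E20Rik and Gm45717.

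The members just inside the rule were 2210418O10Rik at a mean of 10.042 CPM, Gm12183 at 10.032 and Gm43302 at 10.027. The entries just outside were Gm10557 at 9.952 CPM, Gm13835 at 9.871 and Gm42547 at 9.852.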

How the data were processed

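Total RNA of 8 libraries was sequenced. The authors deposited a single table that holds raw read counts per gene, not normalized. STAR, StringTie and mm10 are named in the submitters' processing notes without versions. The counting program, annotation and strand setting were not given in the sources used here. The 3225 entries without a symbol, 0.168% to 0.178% of counts, were left out. Members and gene lists were chosen with earlier results of these data known. Counts were filtered with filterByExpr, scaled by TMM and fitted with edgeR 4.0.16 (R 4.3.3), a mean per group over all 8 libraries, with 4 residual degrees of freedom. P-values were two-sided. DESeq2 1.42.0, library totals, no filter, fits of the 2 groups compared, members without exon overlap, other level thresholds, a replicate block and leaving out each library were the alternatives. Libraries within groups were not duplicates (chi-square per degree of freedom 22.7 to 27.6). Members were named by rule: the 12 highest, the 8 largest rises and falls per dose and 4 per pair of doses, the 4 smallest p per class, 3 on each side of the level threshold, ribosomal RNA and mitochondrial lists, and 4 with the largest replicate ratio. Not every one is described, and 1 is not reported here. The test was checked on simulated data.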

Additional observations from a re-analysis of the deposited data

How the results depend on the processing

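No call of a member changed direction under any alternative run. The 115 calls at 10 ng/ml became 70 with a level threshold of 20 CPM, which leaves fewer members, and 62 to 107 when 1 library was left out, with 62 without untreated replicate 1 and 67 without TWEAK10 replicate 1. The 76 calls at 30 ng/ml became 48 with that threshold and 46 to 77 with a library left out, with 46 and 47 without untreated replicates 1 and 2 and 48 without TWEAK30 replicate 1. At 100 ng/ml, 0 became 7 with DESeq2, 3 with a threshold of 5 CPM, which takes 538 members, and 0 to 2 with a library left out. Between 100 and 10 ng/ml, 73 became 35 to 65 with a library left out (35 without TWEAK100 replicate 1, 41 without TWEAK10 replicate 1), and between 100 and 30 ng/ml, 44 became 16 to 41 (16 and 28 without TWEAK100 replicates 1 and 2, 21 without TWEAK30 replicate 1). Between 30 and 10 ng/ml, 0 became 2 with DESeq2 and 0 to 2 with a library left out. The causes were not tested. Replicate numbers did not pair the samples (correlations of deviations between -0.046 and 0.028), and with them as a replicate block the counts, in the order above, were 100, 66, 0, 59, 35 and 0. Over 770 values of named members called at a dose, 37 lost the call, 33 of them with a library left out. With 2 libraries a group, small changes could be missed, though some were called, such as that of -0.20 in Gm29216 at 30 ng/ml.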
